A study of Mus musculus with 9 samples.

Results

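The 50 genes described here encode proteins that drive the cell division cycle, from the G1 cyclins and the E2F1 transcription factor, through the machinery that licenses and copies DNA, to the kinases, kinetochore proteins and motors of mitosis. They were chosen by name, as the rows of the deposited table whose Entrez gene number is that of 1 of 50 listed mouse symbols. All 50 were found among the 17963 genes of the table, and all 50 passed the filter on low counts that left 13954 genes for testing. RNA was sequenced from kidney cortex of wild type mice on day 4, in 9 libraries, to ask what cisplatin does to the kidney and what the herbal Yishen Jiangzhuo decoction (YSJZD) does when given with it. The 3 groups compared have 3 libraries each. The cisplatin+YSJZD group, written YSJZD here, received cisplatin into the peritoneum and the decoction into the stomach. The cisplatin group received the same drug, a platinum compound that crosslinks DNA and injures the kidney tubule, with pure water into the stomach. The control group received saline into the peritoneum and pure water into the stomach. The sources used here do not state strain, sex, age or doses. They also do not say that each library came from its own mouse, so a p-value reflects only how far these samples spread, which may be technical.

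Cells that leave quiescence raise cyclin D and then cyclin E, which with their kinases inactivate the retinoblastoma protein and free E2F factors to switch on genes for DNA replication. Genes needed for mitosis are switched on later, by the B-MYB and FOXM1 factors acting with the MuvB complex, and in resting cells the DREAM complex keeps both sets low. Most tubule cells of the adult kidney are quiescent. After injury, surviving tubule cells are known to enter the cycle to replace lost cells, while p53 and its target p21 (Cdkn1a) restrain it, and immune and interstitial cells in the injured tissue can divide as well.

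Promoters of 5 members are shown because 4 of them stand for the mitotic genes that moved together here and the other for the replication genes. Each runs from 250 bases before to 50 bases after the annotated gene start, 5′ to 3′ on the strand of the gene, from the RefSeq annotation of GRCm38.p6. Capitals mark the matches to 3 elements on either strand. The first is the cell cycle genes homology region or CHR (TTTGAA), which MuvB-containing complexes bind. The second is the CCAAT box (CCAAT), which NF-Y binds, and the third is the E2F site in 4 spellings (TTTCCCGC, TTTGGCGC, TTTCGCGC and TTTGCCGC). Matches of different elements may share bases. Ube2c lies at chr2:164769679-164769978 on the plus strand, and its CHR is on the reverse strand. The other promoters lie on the minus strand, Ccnb2 at chr9:70421505-70421804, Kif23 at chr9:61946750-61947049, Cdk1 at chr10:69352863-69353162 and Mcm6 at chr1:128359656-128359955. In Mcm6 the longest run of capitals holds 2 overlapping E2F matches, 1 on each strand.
Ube2c: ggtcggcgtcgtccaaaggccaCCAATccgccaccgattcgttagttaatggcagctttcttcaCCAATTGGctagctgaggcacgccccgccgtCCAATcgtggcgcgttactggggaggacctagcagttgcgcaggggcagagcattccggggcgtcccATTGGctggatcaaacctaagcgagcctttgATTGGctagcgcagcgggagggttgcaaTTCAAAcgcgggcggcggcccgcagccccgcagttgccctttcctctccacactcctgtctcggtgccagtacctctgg
Ccnb2: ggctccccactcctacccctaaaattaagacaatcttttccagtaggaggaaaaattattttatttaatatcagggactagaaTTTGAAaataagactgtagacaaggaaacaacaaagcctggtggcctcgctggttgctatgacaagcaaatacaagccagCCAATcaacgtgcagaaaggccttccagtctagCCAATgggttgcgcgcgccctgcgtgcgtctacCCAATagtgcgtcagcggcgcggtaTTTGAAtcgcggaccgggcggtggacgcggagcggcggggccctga
Kif23: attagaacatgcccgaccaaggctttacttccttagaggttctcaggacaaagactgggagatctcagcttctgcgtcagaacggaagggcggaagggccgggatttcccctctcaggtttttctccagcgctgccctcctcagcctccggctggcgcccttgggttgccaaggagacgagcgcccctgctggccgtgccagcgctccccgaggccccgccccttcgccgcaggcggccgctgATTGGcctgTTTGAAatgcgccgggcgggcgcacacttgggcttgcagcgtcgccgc
Cdk1: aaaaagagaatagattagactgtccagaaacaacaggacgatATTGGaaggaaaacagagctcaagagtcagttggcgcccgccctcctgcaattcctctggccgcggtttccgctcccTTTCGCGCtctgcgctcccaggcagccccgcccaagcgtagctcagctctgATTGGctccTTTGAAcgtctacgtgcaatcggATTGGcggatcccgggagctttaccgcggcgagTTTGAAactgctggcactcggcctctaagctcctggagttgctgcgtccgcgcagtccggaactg
Mcm6: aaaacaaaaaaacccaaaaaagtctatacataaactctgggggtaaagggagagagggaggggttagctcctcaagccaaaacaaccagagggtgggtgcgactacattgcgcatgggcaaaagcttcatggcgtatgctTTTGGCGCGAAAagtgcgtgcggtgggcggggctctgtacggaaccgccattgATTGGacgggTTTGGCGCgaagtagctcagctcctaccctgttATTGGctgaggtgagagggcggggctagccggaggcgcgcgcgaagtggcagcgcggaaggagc

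The libraries held between 15029286 and 16690482 expected counts. Values are given as CPM, counts divided by the TMM-adjusted library total and brought to a common scale, and a difference as log2 fold change ± its standard error from edgeR's quasi-likelihood test. Calls use the Benjamini-Hochberg adjusted p over all genes tested, with 0.05 as the limit, and a gene is said to have risen or fallen only where it was called. The tissue label was checked on proximal tubule genes. Slc34a1, the phosphate transporter of that segment, averaged 2856 ± 1459.5 CPM in YSJZD, 218 ± 95.4 CPM in cisplatin and 7721 ± 1320.5 CPM in control libraries (SD, n = 3 each). Several single libraries stood apart for the cell cycle genes. Control replicate 1 was the lowest of its group for 49 of the 50 members, and cisplatin replicate 1 the highest of its group for 44, so counts that rest on them are given with and without them. Cisplatin replicate 3 was the lowest of its group for 41 members, and YSJZD replicate 3 the highest of its group for 40.

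Against control, 19 of the 50 members rose with cisplatin and 0 fell, where 28.6% of all genes tested rose and 26.0% fell. Against cisplatin, 39 of the 50 fell with YSJZD and 0 rose, where 18.0% of all genes tested fell and 17.4% rose. Against control, 2 of the 50 fell with YSJZD (Cenpf and Kif4) and 0 rose, where 9.37% of all genes tested fell and 9.93% rose. These counts are from edgeR. With DESeq2, 21 members rose with cisplatin against control, 43 fell with YSJZD against cisplatin and 12 fell with YSJZD against control, and with limma-voom these counts were 23, 39 and 0. For the 3 counts of 0, DESeq2 and limma-voom also gave 0, and at an unadjusted p under 0.05 the counts were 0 falling with cisplatin, 0 rising with YSJZD against cisplatin and 1 rising with YSJZD against control (Cdk2). The 19 genes that rose with cisplatin were all among the 39 that were lower with YSJZD than with cisplatin, and 11 members were called in no comparison. These comparisons share libraries, each group entering 2 of them, so their counts are not independent.

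Over the members the median log2 fold change was 0.97 for cisplatin against control, with 45 of 50 values above 0, and 0.04 over all genes tested. Of the 19 genes that rose, 15 did so at least 2-fold, where such calls made up 18.6% of all genes. For YSJZD against cisplatin the median was -2.16, with 50 of 50 values below 0 and 36 members at least 2-fold lower, against -0.01 over all genes. At least 2-fold lower calls made up 11.3% of all genes in that comparison. For YSJZD against control the median was -1.01, against 0.01 over all genes. There 46 of 50 values lay below 0, and 22 of those had an unadjusted p under 0.05. Library values of the groups did not overlap for 25 members that were higher with cisplatin than in control, where 32.4% of all genes were so. They did not overlap for 45 members that were lower with YSJZD than with cisplatin, where 23.6% of all genes were so. In YSJZD against control they did not overlap for 3 members that were lower with YSJZD (Ccnd1, Mcm6 and Cenpe), where 19.5% of all genes were so, and for 1 that was higher (Cdk2), where 20.8% were so.

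**Figure D1:**
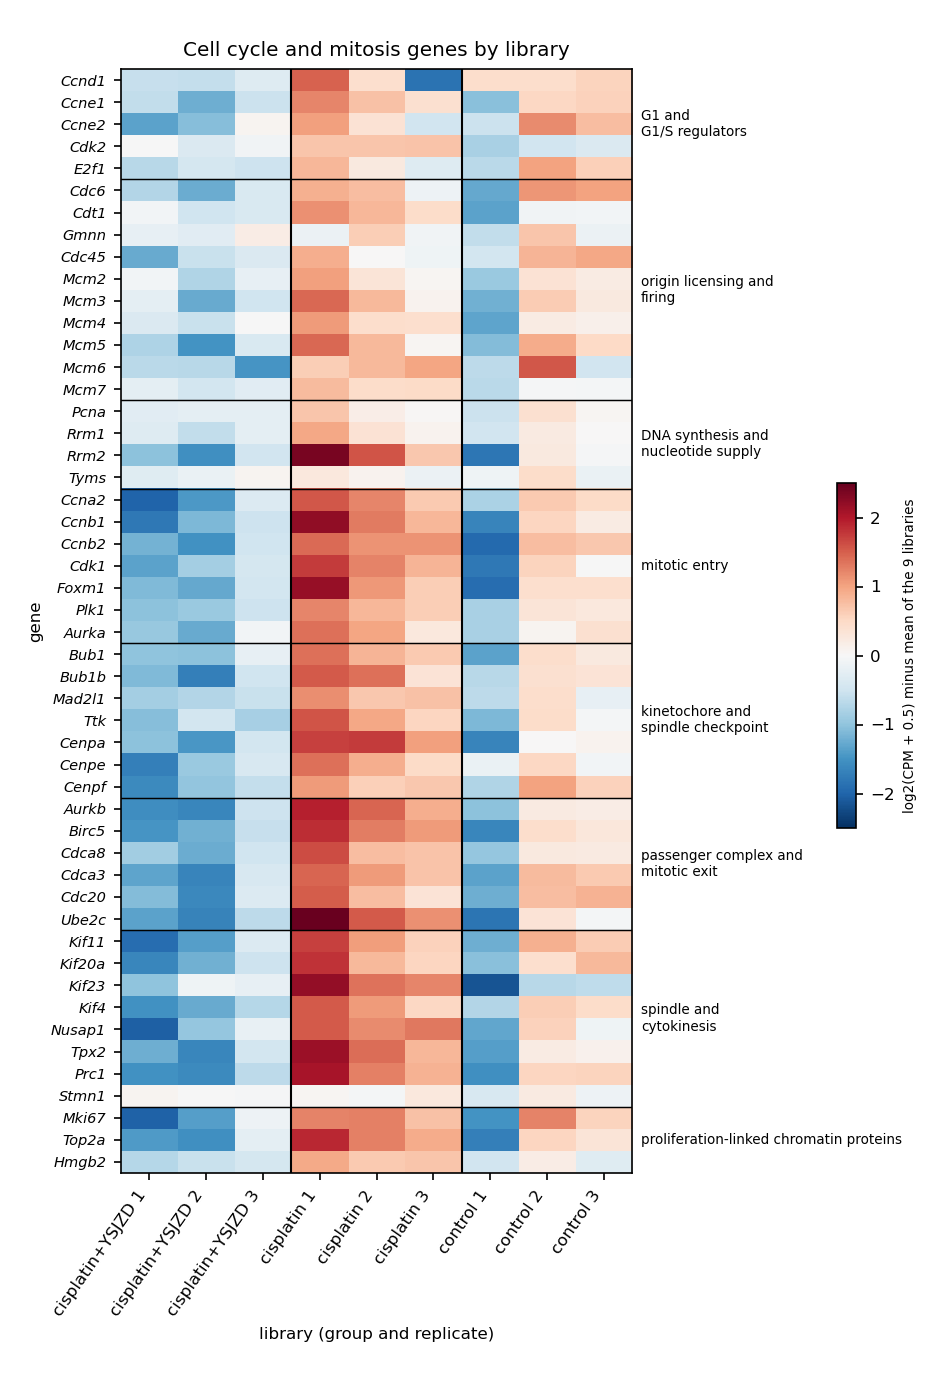
Heat map of the 50 members (rows, in role groups) in the 9 libraries (columns). Colour gives log2(CPM + 0.5) minus the mean of the gene over the 9 libraries, red above and blue below. Cisplatin libraries are red for most rows, while YSJZD libraries and control replicate 1 are blue for most rows.

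The count that rose with cisplatin depended on which libraries were in the fit. Without cisplatin replicate 1, 9 members rose with cisplatin, where 25.8% of all genes tested in that fit rose. It was 12 without control replicate 1, where 24.1% of all genes rose, and 12 without control replicate 3, where 25.6% rose. The highest count, 23, came without cisplatin replicate 3, where 27.6% of all genes rose. Without both cisplatin replicate 1 and control replicate 1, a setting chosen after seeing the data, 7 members rose, where 21.8% of all genes rose, and the members' median log2 fold change was 0.45. The fall with YSJZD against cisplatin was called for 29 members without cisplatin replicate 1 (14.8% of all genes fell), for 45 without control replicate 1 (17.2%), for 27 without YSJZD replicate 2 (12.2%) and for 39 without both cisplatin replicate 1 and control replicate 1 (13.7%). Against control, 16 members fell with YSJZD once control replicate 1 was left out, where 5.52% of all genes fell, and 17 without it and cisplatin replicate 1, where 5.64% fell. That count was 5 without YSJZD replicate 3 (5.99% of all genes), 1 without cisplatin replicate 1 (9.21%), and 0 without YSJZD replicate 1, YSJZD replicate 2, cisplatin replicate 2, control replicate 2 or control replicate 3 (5.97 to 8.76%).

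The 50 genes varied more between libraries of 1 group than other genes did. Their median biological coefficient of variation, the spread between libraries beyond counting error, was 0.435, against 0.238 for 2461 other genes of like level and 0.192 for all genes tested. The highest library of a group exceeded the lowest by a median of 2.21 times in YSJZD, 1.94 times in cisplatin and 3.73 times in control. YSJZD replicate 3 was the highest of its group for 40 members. Counts were low in places, with 13, 14 and 3 members under 20 counts in the YSJZD libraries, 0, 0 and 1 in the cisplatin libraries, and 16, 0 and 1 in the control libraries. Per length, the highest member in all groups was Stmn1, a regulator of microtubules that some nondividing cells also make, at 109.9 FPKM in YSJZD, 119.5 in cisplatin and 91.8 in control libraries. The lowest was Cenpf, a large kinetochore protein, at 0.0833 FPKM in YSJZD, 0.407 in cisplatin and 0.267 in control libraries (means of 3 libraries).

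Regulators of G1 phase and of entry into S phase were mostly not called. Of the 5, only Cdk2 rose with cisplatin against control, and Cdk2 and Ccne1 fell with YSJZD against cisplatin. Over all genes tested, 28.6% rose in the former comparison and 18.0% fell in the latter. Without YSJZD replicate 2 or cisplatin replicate 1 only Cdk2 fell. Cdk2, the kinase that cyclin E and cyclin A activate, had 16.4, 12.7 and 15.4 CPM in the YSJZD libraries, 27.1, 26.8 and 27.4 CPM in the cisplatin libraries and 9.24, 11.7 and 12.7 CPM in the control libraries. The 3 groups did not overlap, with cisplatin libraries highest and control libraries lowest. Cdk2 rose with cisplatin (1.27 ± 0.17, adjusted p = 1.32e-04, 2.42-fold) and fell with YSJZD against cisplatin (-0.87 ± 0.16, adjusted p = 0.00311). It was not called in YSJZD against control (0.41 ± 0.17, adjusted p = 0.117), although library totals in place of TMM gave 0.59, adjusted p = 0.0486. Ccne1, which encodes cyclin E1, had 1.17, 0.590 and 1.25 CPM in the YSJZD libraries, 5.42, 3.71 and 2.85 CPM in the cisplatin libraries and 0.727, 3.13 and 3.31 CPM in the control libraries. Its YSJZD libraries lay below every cisplatin library, while control replicate 1 lay apart from the other control libraries. It fell with YSJZD against cisplatin (-1.98 ± 0.55, adjusted p = 0.0182), a call lost without YSJZD replicate 2 or cisplatin replicate 1, and had 0.74 ± 0.52, adjusted p = 0.252 in cisplatin against control.

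Ccnd1, which encodes cyclin D1, the cyclin that growth factors induce first, had 140.3, 139 and 168 CPM in the YSJZD libraries, 589, 282 and 58.4 CPM in the cisplatin libraries and 286, 287 and 308 CPM in the control libraries. The cisplatin libraries spanned 10.1-fold, above, at and far below the control level, and the YSJZD libraries all lay below the control libraries. No comparison called it. Cisplatin against control gave 0.08 ± 0.57, adjusted p = 0.916, YSJZD against cisplatin gave -1.05 ± 0.57, adjusted p = 0.177, and YSJZD against control gave -0.97 ± 0.57, adjusted p = 0.272. The sign of the first turned without cisplatin replicate 1, to -0.78. Ccne2, a further cyclin E, and E2f1 were called in no comparison either, and E2f1 averaged 4.48 ± 0.420 CPM in YSJZD, 8.64 ± 3.56 CPM in cisplatin and 9.53 ± 5.05 CPM in control libraries (SD, n = 3 each).

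The 10 genes of origin licensing and firing load the MCM helicase on DNA and start it. Cdt1 and Mcm7 rose with cisplatin against control, a share of 20% that is below the 28.6% of all genes tested. With YSJZD against cisplatin 5 of the 10 fell, where 18.0% of all genes fell. That count moved with the libraries, to 3 without YSJZD replicate 1 or cisplatin replicate 2, 1 without YSJZD replicate 2, 2 without YSJZD replicate 3 or cisplatin replicate 1, and 9 without control replicate 1. In these fits 12.2 to 17.2% of all genes fell. Mcm7, a subunit of the helicase, had 27.7, 23.9 and 27.0 CPM in the YSJZD libraries, 57.8, 45.9 and 46.2 CPM in the cisplatin libraries and 20.4, 32.5 and 31.9 CPM in the control libraries. Every cisplatin library lay above every library of the other groups, and those groups overlapped. It rose with cisplatin (0.82 ± 0.19, adjusted p = 0.00392) and was lower with YSJZD than with cisplatin (-0.93 ± 0.19, adjusted p = 0.00418). Cdt1, the loading factor of the helicase, had 10.3, 7.54 and 8.18 CPM in the YSJZD libraries, 24.6, 19.7 and 15.1 CPM in the cisplatin libraries and 4.00, 10.1 and 10.3 CPM in the control libraries. It rose with cisplatin (1.28 ± 0.33, adjusted p = 0.00832) and fell with YSJZD against cisplatin (-1.19 ± 0.33, adjusted p = 0.0192), the second call being lost without YSJZD replicate 2, YSJZD replicate 3 or cisplatin replicate 1.

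Mcm5 and Mcm6 encode further helicase subunits. Mcm5 had 6.30, 3.61 and 8.42 CPM in the YSJZD libraries, 30.7, 19.9 and 11.5 CPM in the cisplatin libraries and 4.95, 21.6 and 15.7 CPM in the control libraries, and Mcm6 had 14.3, 14.1 and 7.95 CPM with YSJZD, 35.7, 40.6 and 46.2 CPM with cisplatin alone and 14.5, 68.3 and 16.3 CPM in control. In Mcm6 control replicate 2 stood far above the other control libraries and above all cisplatin libraries. Both fell with YSJZD against cisplatin (-1.76 ± 0.53, adjusted p = 0.0261 for Mcm5, and -1.75 ± 0.53, adjusted p = 0.0268 for Mcm6), but leaving out 1 of several libraries lost each call, with adjusted p up to 0.0919 for Mcm5 without cisplatin replicate 1 and up to 0.0956 for Mcm6 without YSJZD replicate 3. Mcm3 fell too (-1.56 ± 0.50, adjusted p = 0.0335; 0.119 without cisplatin replicate 1). Values of Mcm2 and Mcm4, of Cdc6, which loads the helicase with Cdt1, of Cdc45, which activates it, and of Gmnn, which encodes the Cdt1 inhibitor geminin, were not called in any comparison. In YSJZD against cisplatin these 5 lay between -1.78 ± 0.74 (Cdc6) and -0.28 ± 0.39 (Gmnn).

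Among the 4 genes of DNA synthesis, the small subunit of ribonucleotide reductase, which limits the supply of deoxynucleotides, stood out. Rrm2 had 7.53, 5.18 and 11.3 CPM in the YSJZD libraries, 84.1, 48.1 and 25.4 CPM in the cisplatin libraries and 4.15, 18.9 and 15.6 CPM in the control libraries. The lowest cisplatin library exceeded all libraries of the other groups, and the cisplatin libraries themselves spread widely. Rrm2 rose 4.07-fold with cisplatin (2.03 ± 0.55, adjusted p = 0.0103) and was 6.57-fold lower with YSJZD than with cisplatin (-2.71 ± 0.57, adjusted p = 0.0051). Rrm1, the large subunit, had 18.5, 15.1 and 19.8 CPM in the YSJZD libraries, 46.2, 30.3 and 25.1 CPM in the cisplatin libraries and 16.6, 27.3 and 23.7 CPM in the control libraries. It fell with YSJZD against cisplatin (-0.93 ± 0.25, adjusted p = 0.017), a call lost without YSJZD replicate 2 or cisplatin replicate 1, and had 0.59 ± 0.25, adjusted p = 0.0695 in cisplatin against control.

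Pcna, the sliding clamp of DNA polymerase that also serves in DNA repair, had 38.3, 39.2 and 39.6 CPM in the YSJZD libraries, 75.6, 52.3 and 47.7 CPM in the cisplatin libraries and 32.1, 62.3 and 48.3 CPM in the control libraries. Its YSJZD libraries lay within 1.03 times of each other, below the cisplatin libraries and within the range of control. It was not called. Cisplatin against control gave 0.30 ± 0.24, adjusted p = 0.306, YSJZD against cisplatin -0.59 ± 0.24, adjusted p = 0.078, and YSJZD against control -0.29 ± 0.24, adjusted p = 0.447. Tyms, thymidylate synthase, averaged 27.8 ± 3.82 CPM in YSJZD, 32.3 ± 4.57 CPM in cisplatin and 32.6 ± 8.43 CPM in control libraries (SD, n = 3 each) and was called in no comparison.

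**Figure D2:**
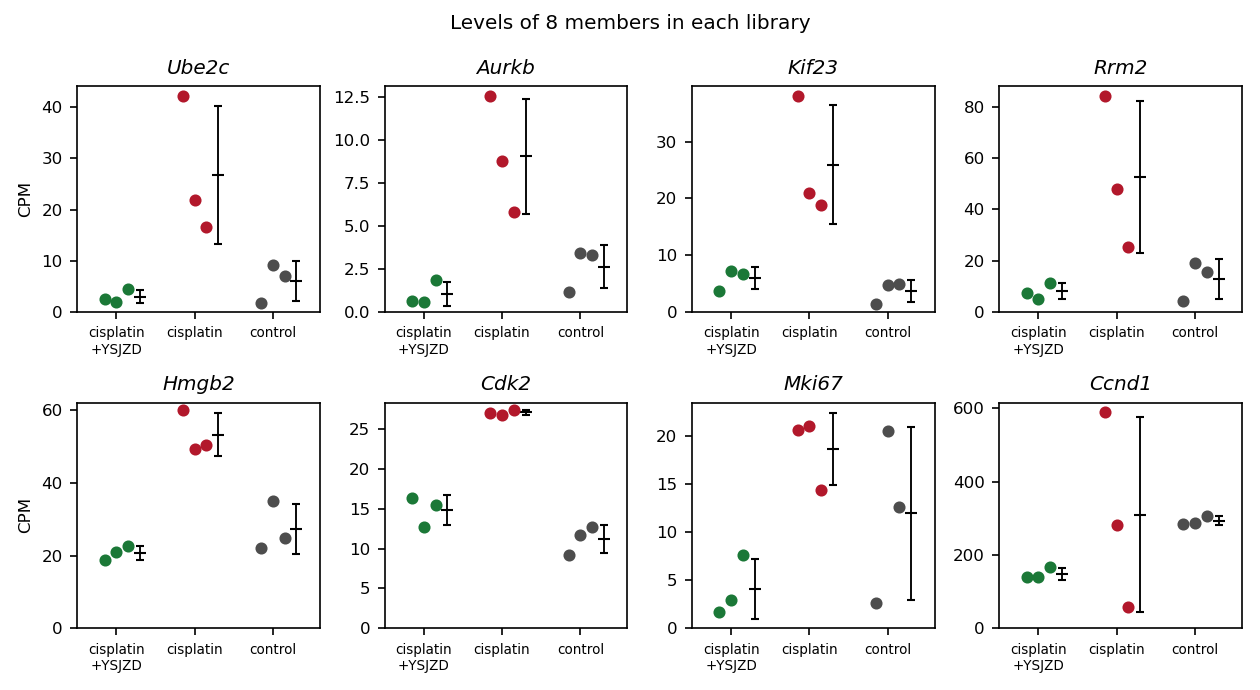
Levels of 8 members in each library, in CPM on linear axes that start at 0. Coloured points are libraries of the cisplatin+YSJZD, cisplatin and control groups, and the black bar is the mean ± SD of 3 libraries. Ube2c, Aurkb, Kif23, Rrm2, Hmgb2 and Cdk2 had every cisplatin library above all others, while Ccnd1 spread from 58.4 to 589 CPM within the cisplatin group.

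All 7 genes of mitotic entry fell with YSJZD against cisplatin, and 3 of them, Ccnb1, Cdk1 and Plk1, rose with cisplatin against control. Over all genes tested, 18.0% fell in the former comparison and 28.6% rose in the latter. Cdk1, the kinase that drives mitosis, had 1.87, 2.82 and 3.91 CPM in the YSJZD libraries, 19.4, 13.5 and 10.3 CPM in the cisplatin libraries and 1.24, 8.23 and 5.43 CPM in the control libraries. The YSJZD libraries lay inside the range of control, and the lowest cisplatin library lay above both groups. Cdk1 rose with cisplatin (1.54 ± 0.54, adjusted p = 0.033) and fell with YSJZD against cisplatin (-2.33 ± 0.56, adjusted p = 0.00963). Ccnb1, which encodes its partner cyclin B1, had 0.817, 1.57 and 2.67 CPM in the YSJZD libraries, 20.4, 10.6 and 7.57 CPM in the cisplatin libraries and 0.945, 6.12 and 4.70 CPM in the control libraries. It rose 3.28-fold with cisplatin (1.71 ± 0.62, adjusted p = 0.0371) and was 7.63-fold lower with YSJZD than with cisplatin (-2.93 ± 0.66, adjusted p = 0.00707).

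Plk1, a kinase that acts from mitotic entry to exit, had 1.69, 1.84 and 2.61 CPM in the YSJZD libraries, 9.87, 7.42 and 6.27 CPM in the cisplatin libraries and 2.04, 5.02 and 4.83 CPM in the control libraries. Here too all cisplatin libraries lay above the rest, and the changes were 0.98 ± 0.36, adjusted p = 0.0398 in cisplatin against control and -1.94 ± 0.37, adjusted p = 0.0035 in YSJZD against cisplatin. Ccna2, cyclin A2, which acts in S phase and early mitosis, had 1.46, 2.43 and 5.69 CPM in the YSJZD libraries, 22.6, 17.8 and 11.9 CPM in the cisplatin libraries and 4.07, 11.9 and 10.5 CPM in the control libraries. It fell 5.46-fold with YSJZD against cisplatin (-2.45 ± 0.52, adjusted p = 0.00563; -3.16 without YSJZD replicate 3) and had 0.98 ± 0.49, adjusted p = 0.115 in cisplatin against control. The rise of Ccnb1, Cdk1 and Plk1 with cisplatin was lost without cisplatin replicate 1 (adjusted p = 0.147, 0.104 and 0.130) or control replicate 3, for Ccnb1 and Plk1 also without control replicate 1, for Cdk1 and Plk1 without cisplatin replicate 2, and for Plk1 without YSJZD replicate 2. Without cisplatin replicate 3, 5 of the 7 genes rose, where 27.6% of all genes rose. The other 3 genes of this group, Ccnb2, the kinase Aurka and the transcription factor Foxm1, fell by 2.52 ± 0.66, 1.85 ± 0.50 and 2.49 ± 0.63 on the log2 scale with YSJZD against cisplatin. The Ccnb2 call was lost without YSJZD replicate 2, and the Aurka call without YSJZD replicate 1, YSJZD replicate 2 or cisplatin replicate 1. For Foxm1, the factor that activates many mitotic genes, the adjusted p in cisplatin against control was 0.0521, at 1.53 ± 0.60, and its fall with YSJZD was -1.90 without cisplatin replicate 1.

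The 7 kinetochore and spindle checkpoint genes, which attach chromosomes to the spindle and delay their separation until all are attached, also all fell with YSJZD against cisplatin. Over all genes tested 18.0% fell in that comparison. Cenpa and Mad2l1 rose with cisplatin against control, a share of 28.6% that equals the 28.6% of all genes tested. Without cisplatin replicate 3, 4 genes rose, where 27.6% of all genes rose. Cenpa, the histone variant that marks centromeres, had 1.05, 0.656 and 1.78 CPM in the YSJZD libraries, 9.76, 10.2 and 5.89 CPM in the cisplatin libraries and 0.509, 2.69 and 2.85 CPM in the control libraries. The cisplatin libraries stood above all others by a wide margin, at 4.27-fold over control (2.09 ± 0.55, adjusted p = 0.00871), and YSJZD was 7.40-fold lower than cisplatin (-2.88 ± 0.57, adjusted p = 0.00404). Mad2l1, the checkpoint protein MAD2, had 4.03, 4.39 and 5.04 CPM in the YSJZD libraries, 17.8, 12.5 and 13.1 CPM in the cisplatin libraries and 4.73, 10.6 and 6.55 CPM in the control libraries. Its rise (0.99 ± 0.29, adjusted p = 0.0151) was lost without cisplatin replicate 1, control replicate 1 or control replicate 3, and its fall with YSJZD against cisplatin (-1.69 ± 0.30, adjusted p = 0.00217) in no fit that left 1 library out.

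Bub1b, the checkpoint protein BUBR1, had 0.759, 0.328 and 1.42 CPM in the YSJZD libraries, 7.32, 6.56 and 2.92 CPM in the cisplatin libraries and 1.16, 3.06 and 2.91 CPM in the control libraries. Cenpe, a motor that carries chromosomes to the spindle middle, had 0.467, 1.18 and 1.90 CPM with YSJZD, 7.75, 5.48 and 3.91 CPM with cisplatin alone and 2.33, 4.08 and 2.51 CPM in control. In both genes the YSJZD libraries were below every cisplatin library, and for Cenpe also below every control library. Both fell with YSJZD against cisplatin (-2.72 ± 0.58, adjusted p = 0.00548 for Bub1b, -2.27 ± 0.49, adjusted p = 0.00572 for Cenpe) and were not called in cisplatin against control (1.23 ± 0.53 and 0.94 ± 0.46; adjusted p = 0.0741 and 0.105). Without YSJZD replicate 3 the Bub1b value was -3.33. Cenpf had 0.350, 0.787 and 1.19 CPM in the YSJZD libraries, 4.83, 3.37 and 3.54 CPM in the cisplatin libraries and 1.02, 4.59 and 3.31 CPM in the control libraries. It was lower with YSJZD than in control (-1.93 ± 0.57, adjusted p = 0.0404) although control replicate 1 lay within the YSJZD range. That call was lost without YSJZD replicate 1, YSJZD replicate 2, cisplatin replicate 1, cisplatin replicate 2, control replicate 2 or control replicate 3, with adjusted p up to 0.149. Bub1 and Ttk, kinases of the checkpoint, fell with YSJZD against cisplatin (-2.31 ± 0.67, adjusted p = 0.0224 and -2.91 ± 0.70, adjusted p = 0.0101), the Bub1 call being lost without YSJZD replicate 1, YSJZD replicate 2 or cisplatin replicate 1, and its value being -2.94 without YSJZD replicate 3.

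The chromosomal passenger complex corrects faulty attachments and steers cytokinesis, and the anaphase-promoting complex ends mitosis. Of the 6 members grouped under the passenger complex and mitotic exit, 4 rose with cisplatin against control (Aurkb, Birc5, Cdca8 and Ube2c). All 6 fell with YSJZD against cisplatin. Over all genes tested, 28.6% rose in the former comparison and 18.0% fell in the latter. Ube2c, the ubiquitin-conjugating enzyme of the anaphase-promoting complex, had 2.51, 1.90 and 4.39 CPM in the YSJZD libraries, 42.1, 21.8 and 16.5 CPM in the cisplatin libraries and 1.67, 9.25 and 6.95 CPM in the control libraries. Every cisplatin library lay above the other 6, and YSJZD and control libraries overlapped. Ube2c rose 4.50-fold with cisplatin (2.17 ± 0.56, adjusted p = 0.00757) and was 9.14-fold lower with YSJZD than with cisplatin (-3.19 ± 0.59, adjusted p = 0.00272), the widest difference of any member in that comparison. Aurkb, the kinase of the passenger complex, had 0.642, 0.590 and 1.84 CPM in the YSJZD libraries, 12.5, 8.78 and 5.83 CPM in the cisplatin libraries and 1.16, 3.42 and 3.31 CPM in the control libraries. It rose 3.44-fold with cisplatin (1.78 ± 0.51, adjusted p = 0.0136; 0.0525 without cisplatin replicate 1) and was 8.84-fold lower with YSJZD than with cisplatin (-3.13 ± 0.55, adjusted p = 0.00217; -3.85 without YSJZD replicate 3).

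Birc5, or survivin, a subunit of the passenger complex that also inhibits cell death, had 1.52, 1.97 and 3.26 CPM in the YSJZD libraries, 19.6, 13.2 and 11.2 CPM in the cisplatin libraries and 1.31, 7.14 and 6.35 CPM in the control libraries. Cdca8, or borealin, another subunit, had 1.93, 1.38 and 2.61 CPM with YSJZD, 13.1, 7.02 and 6.76 CPM with cisplatin alone and 1.75, 4.73 and 4.63 CPM in control. In both genes the 3 cisplatin libraries lay above the rest, and control replicate 1 lay below the YSJZD libraries in Birc5 and within their range in Cdca8. Birc5 rose with cisplatin (1.57 ± 0.51, adjusted p = 0.0248) and fell with YSJZD against cisplatin (-2.70 ± 0.54, adjusted p = 0.00423). Cdca8 did likewise (1.27 ± 0.42, adjusted p = 0.0267 and -2.18 ± 0.44, adjusted p = 0.00431). Both rises were lost without cisplatin replicate 1 (adjusted p = 0.0820 and 0.116), and that of Cdca8 also without control replicate 1. Cdc20, the activator of the anaphase-promoting complex, and Cdca3 fell with YSJZD against cisplatin (-2.06 ± 0.59, adjusted p = 0.0219 and -2.33 ± 0.58, adjusted p = 0.0112), the first call being lost without YSJZD replicate 1, YSJZD replicate 2 or cisplatin replicate 1.

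Of the 8 spindle and cytokinesis genes, 4 rose with cisplatin (Kif23, Nusap1, Tpx2 and Prc1) and 7 fell with YSJZD against cisplatin, all but Stmn1. Over all genes tested, 28.6% rose in the former comparison and 18.0% fell in the latter. Kif23, a kinesin of the midzone that is needed to cut the daughter cells apart, had 3.68, 7.28 and 6.70 CPM in the YSJZD libraries, 38.0, 21.0 and 18.9 CPM in the cisplatin libraries and 1.38, 4.66 and 4.90 CPM in the control libraries. It showed the widest rise of any member with cisplatin, 7.12-fold (2.83 ± 0.47, adjusted p = 5.67e-04), and fell with YSJZD against cisplatin (-2.14 ± 0.45, adjusted p = 0.00498). It was 1 of the 4 members with a positive value in YSJZD against control, though not called (0.68 ± 0.46, adjusted p = 0.341). Tpx2, which activates Aurora A on the spindle, had 1.98, 1.38 and 3.74 CPM in the YSJZD libraries, 24.9, 14.8 and 9.80 CPM in the cisplatin libraries and 1.75, 6.19 and 5.76 CPM in the control libraries. It rose with cisplatin (1.85 ± 0.51, adjusted p = 0.0113) and fell with YSJZD against cisplatin (-2.80 ± 0.54, adjusted p = 0.00343).

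Prc1, which bundles the microtubules of the midzone, had 1.93, 1.77 and 3.85 CPM in the YSJZD libraries, 28.1, 16.0 and 12.1 CPM in the cisplatin libraries and 1.89, 9.54 and 9.66 CPM in the control libraries. Its fall with YSJZD against cisplatin (-2.89 ± 0.59, adjusted p = 0.00436) was kept without each library in turn, whereas its rise with cisplatin (1.41 ± 0.55, adjusted p = 0.0488) was kept only without YSJZD replicate 3 or cisplatin replicate 3. Kif4, a kinesin that works with Prc1 and condenses chromosomes, had 0.467, 0.656 and 1.19 CPM in the YSJZD libraries, 7.54, 5.31 and 3.47 CPM in the cisplatin libraries and 1.16, 3.71 and 3.31 CPM in the control libraries. It was 7.07-fold lower with YSJZD than with cisplatin (-2.81 ± 0.53, adjusted p = 0.00312) and also lower with YSJZD than in control (-1.82 ± 0.53, adjusted p = 0.0383), the second call being lost without YSJZD replicate 1, YSJZD replicate 2, cisplatin replicate 2, control replicate 2 or control replicate 3. Kif11, Kif20a and Nusap1 fell with YSJZD against cisplatin by 2.70 ± 0.72, 2.43 ± 0.57 and 2.46 ± 0.59 on the log2 scale. Without YSJZD replicate 3 the values of Kif11 and Nusap1 were -3.64 and -3.15, and the Kif11 call was lost without YSJZD replicate 2 or cisplatin replicate 1. The rise of Nusap1 with cisplatin (1.53 ± 0.57, adjusted p = 0.0413) was lost without YSJZD replicate 2, any cisplatin replicate, control replicate 1 or control replicate 3. Stmn1 had 101, 94.5 and 93.2 CPM in the YSJZD libraries, 99.2, 92.1 and 115 CPM in the cisplatin libraries and 72.4, 112 and 88.1 CPM in the control libraries, with overlapping groups in every comparison.

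The last group holds 3 chromatin proteins whose levels follow proliferation, and all 3 fell with YSJZD against cisplatin, where 18.0% of all genes tested fell. Mki67, the Ki-67 antigen that coats mitotic chromosomes and is used to count dividing cells, had 1.69, 2.95 and 7.65 CPM in the YSJZD libraries, 20.7, 21.0 and 14.4 CPM in the cisplatin libraries and 2.69, 20.6 and 12.6 CPM in the control libraries. Control replicates 2 and 3 lay near the cisplatin libraries and control replicate 1 near the YSJZD libraries. Mki67 was 4.57-fold lower with YSJZD than with cisplatin (-2.19 ± 0.67, adjusted p = 0.028), a call lost without YSJZD replicate 1, YSJZD replicate 2, cisplatin replicate 1 or cisplatin replicate 2, and it was not called in cisplatin against control (0.64 ± 0.63, adjusted p = 0.411). Without YSJZD replicate 3 its value against cisplatin was -3.01.

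Top2a, the topoisomerase that untangles sister chromosomes, had 3.68, 3.35 and 8.89 CPM in the YSJZD libraries, 40.7, 26.2 and 20.9 CPM in the cisplatin libraries and 2.91, 15.7 and 13.5 CPM in the control libraries. It rose with cisplatin (1.45 ± 0.55, adjusted p = 0.0464), a call that was lost without YSJZD replicate 1, YSJZD replicate 2, cisplatin replicate 1, cisplatin replicate 2, control replicate 1 or control replicate 3. It fell with YSJZD against cisplatin (-2.46 ± 0.58, adjusted p = 0.00878; -3.05 without YSJZD replicate 3). Hmgb2, a DNA-bending protein, had 18.7, 20.9 and 22.5 CPM in the YSJZD libraries, 60.0, 49.2 and 50.4 CPM in the cisplatin libraries and 22.0, 35.1 and 24.8 CPM in the control libraries. All cisplatin libraries lay above the rest, and the YSJZD libraries were close to control replicates 1 and 3. It rose with cisplatin (0.96 ± 0.18, adjusted p = 0.00127) and fell with YSJZD against cisplatin (-1.36 ± 0.18, adjusted p = 5.57e-04), both calls being kept in all fits that left a library out.

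**Figure D3:**
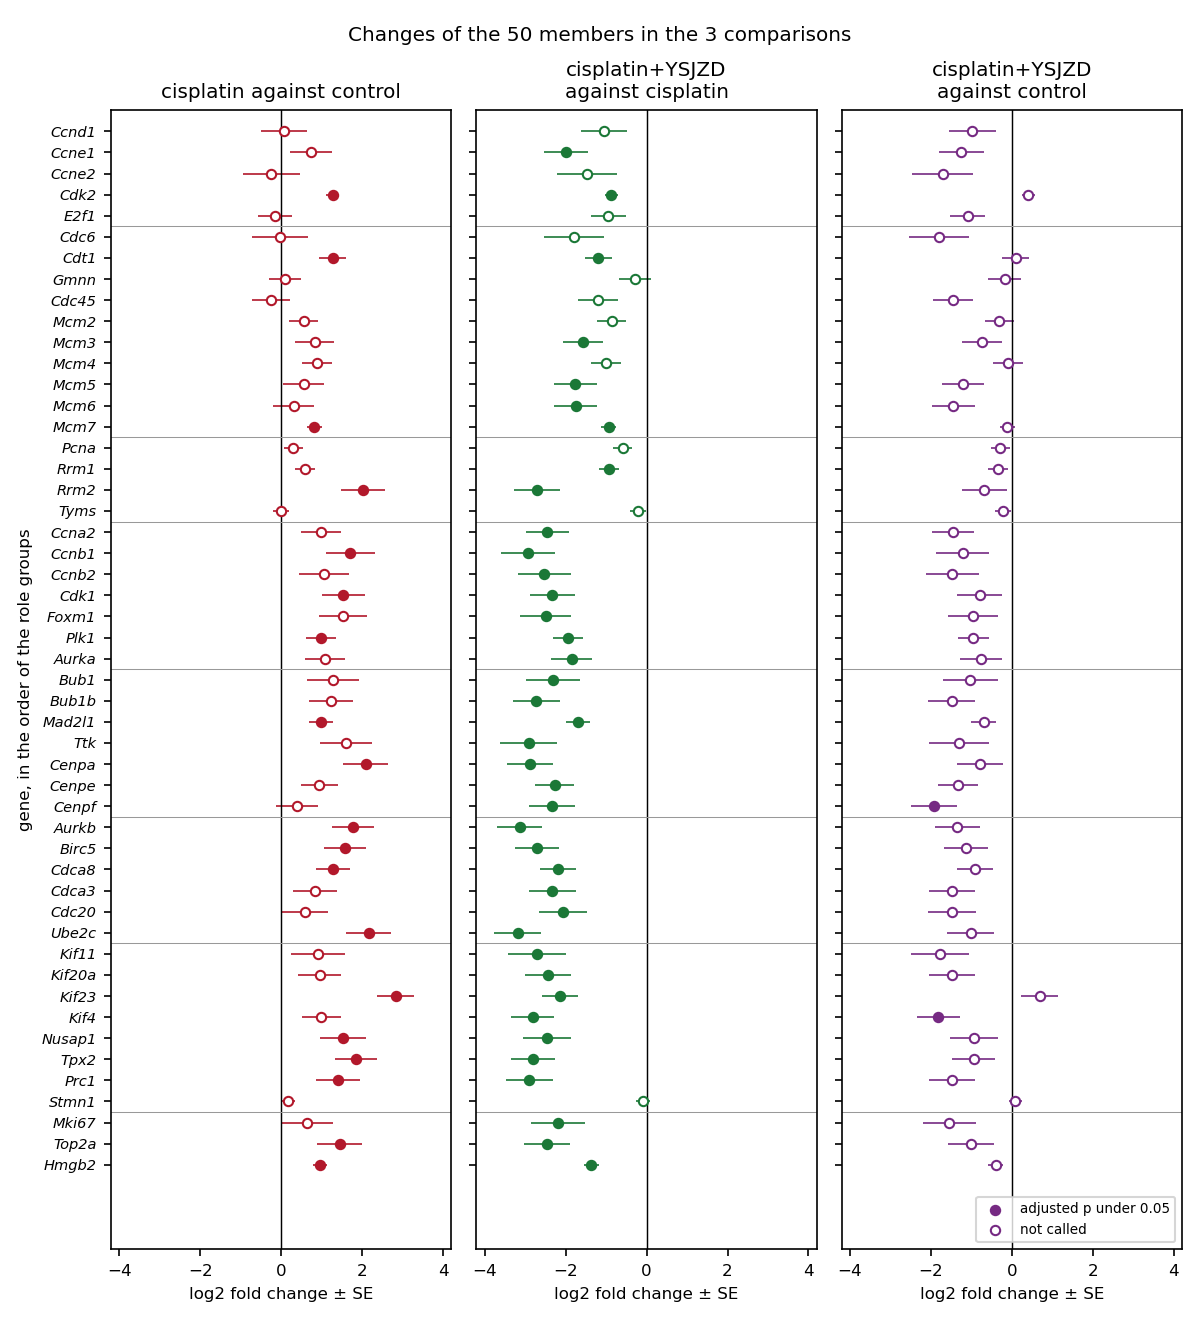
Log2 fold change ± standard error of each member (rows, in role groups) in the 3 comparisons (panels). Filled points have an adjusted p under 0.05 in edgeR's quasi-likelihood test and open points do not. In the middle panel 39 points are filled and all 50 lie left of 0, while the right panel has 2 filled points.

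Set beside each other in the fit of all 9 libraries, the mitotic groups had more calls and medians further from 0 than the G1 and S phase groups in all 3 comparisons. This is a description of counts and medians, and the difference between the sets was not tested. With cisplatin against control, 15 of the 31 mitotic members rose (median 1.23) and 4 of the 19 G1 and S phase members (median 0.55). Of all genes tested 28.6% rose, which is above the share of the G1 and S phase members. With YSJZD against cisplatin, 30 of the 31 fell (median -2.45) and 9 of the 19 (median -1.05), where 18.0% of all genes fell. In YSJZD against control the medians were -1.13 and -0.69, and 2 of the 31 and 0 of the 19 fell, where 9.37% of all genes fell. Without cisplatin replicate 1 the risen members were 5 of 31 and 4 of 19, and the fallen members 25 of 31 and 4 of 19. In that fit 25.8% of all genes rose and 14.8% fell. The risen share was then smaller in the mitotic groups than in the G1 and S phase groups, and both were below that over all genes. Without YSJZD replicate 2 the fallen members were 24 of 31 and 3 of 19 (12.2% of all genes fell). Without control replicate 3 the risen members were 8 of 31 and 4 of 19 (25.6% of all genes rose). Without control replicate 1 the risen members were 8 of 31 and 4 of 19, and the fallen ones 30 of 31 and 15 of 19, where 24.1% of all genes rose and 17.2% fell.

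Other genes of the pathway were counted in the same way. With cisplatin against control, 28.6% of all genes tested rose and 26.0% fell. With YSJZD against cisplatin 17.4% rose and 18.0% fell, and with YSJZD against control 9.37% fell. Among 54 other mitosis genes, 25 rose with cisplatin against control (median 1.22), 41 fell with YSJZD against cisplatin (median -2.02), and 1 fell with YSJZD against control. Without both cisplatin replicate 1 and control replicate 1 these counts were 12, 38 and 10. The second count was 24 without YSJZD replicate 2, and the third was 9 without control replicate 1. Incenp, the scaffold of the passenger complex, had 7.76, 5.38 and 7.29 CPM in the YSJZD libraries, 22.9, 20.023 and 17.2 CPM in the cisplatin libraries and 4.87, 7.50 and 7.94 CPM in the control libraries. It rose with cisplatin (1.56 ± 0.24, adjusted p = 3.35e-04) and fell with YSJZD against cisplatin (-1.56 ± 0.24, adjusted p = 9.97e-04), and its YSJZD and control libraries overlapped. Zwint, a kinetochore protein that is also made in nondividing cells, rose with cisplatin (1.397 ± 0.25, adjusted p = 0.00102) and fell with YSJZD against it (-1.22 ± 0.25, adjusted p = 0.00485), as did Ndc80, which grips the microtubule (1.58 ± 0.43, adjusted p = 0.0107 and -2.87 ± 0.47, adjusted p = 0.00158).

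Among 45 other replication genes, 14 rose and 5 fell with cisplatin against control (median 0.32). In YSJZD against cisplatin 1 rose and 16 fell (median -0.56). The share that rose with cisplatin, 31.1%, was near the 28.6% of all genes tested. The share that fell with YSJZD against cisplatin was 35.6%, where 18.0% of all genes fell. Without both cisplatin replicate 1 and control replicate 1, 6 rose with cisplatin, and 3 fell without cisplatin replicate 3, control replicate 1 or control replicate 2. Rnaseh2a, a subunit of the nuclease that removes RNA from DNA, rose with cisplatin (1.03 ± 0.18, adjusted p = 8.40e-04) and fell with YSJZD against it (-0.95 ± 0.18, adjusted p = 0.00315). Mcm10, a replication factor that was not called with cisplatin against control (-0.28 ± 0.28, adjusted p = 0.415), was lower with YSJZD than in either other group (-1.47 ± 0.29, adjusted p = 0.00422 against cisplatin and -1.75 ± 0.30, adjusted p = 0.00318 against control).

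Of 6 tested inhibitors of cyclin-dependent kinases, 4 rose with cisplatin against control (2 without control replicate 2). In YSJZD against cisplatin 3 fell (1 without cisplatin replicate 1 or 2, and 0 without YSJZD replicate 3). Of all genes tested, 28.6% rose in the former comparison and 18.0% fell in the latter. Cdkn1a, which encodes p21, had 553, 269 and 415 CPM in the YSJZD libraries, 885, 833 and 598 CPM in the cisplatin libraries and 7.05, 5.46 and 7.01 CPM in the control libraries. It was 119-fold higher with cisplatin than in control (6.89 ± 0.33, adjusted p = 1.29e-06), fell with YSJZD against cisplatin (-0.91 ± 0.25, adjusted p = 0.019), and with YSJZD was still 63.3-fold above control (5.98 ± 0.32, adjusted p = 1.59e-05). Its fall with YSJZD against cisplatin was lost without YSJZD replicate 2 or 3 or cisplatin replicate 1 or 2, with adjusted p up to 0.0601. In YSJZD against control Cdkn1a was called higher and 2 of the 31 mitotic members were called lower, where 9.37% of all genes tested fell. Neither of these 2 calls was kept in every alternative fit, and a link with Cdkn1a was not tested. Cdkn2b, or p15, rose with cisplatin (2.77 ± 0.46, adjusted p = 5.75e-04) and fell with YSJZD against it (-1.64 ± 0.42, adjusted p = 0.0137), and so did Cdkn2d, or p19 (0.67 ± 0.22, adjusted p = 0.0245 and -0.80 ± 0.22, adjusted p = 0.0168). The fall of Cdkn2b was lost without YSJZD replicate 3 or cisplatin replicate 1, that of Cdkn2d without YSJZD replicate 3 or cisplatin replicate 2, and the rise of Cdkn2d without cisplatin replicate 2 or 3 or any control replicate. Without control replicate 3 the rise of Cdkn2b was 3.405. Cdkn2a, with 5 counts in all, did not pass the filter on low counts.

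The 18 RB, E2F and DREAM factors split, 4 rising and 4 falling with cisplatin against control (2 rising without cisplatin replicate 1 or control replicate 1, and 7 without cisplatin replicate 3). Each share, 22.2%, was below those over all genes tested, where 28.6% rose and 26.0% fell. Mybl2, or B-MYB, which activates mitotic genes with MuvB, rose 5.25-fold (2.39 ± 0.45, adjusted p = 0.00123) and fell with YSJZD against cisplatin (-2.13 ± 0.44, adjusted p = 0.0047). Lin52, a MuvB subunit, and Rbl2, or p130, the pocket protein of DREAM in resting cells, fell with cisplatin (-0.85 ± 0.15, adjusted p = 0.00104 and -0.67 ± 0.13, adjusted p = 0.00133). Lin52 was also lower with YSJZD than in control (-0.57 ± 0.15, adjusted p = 0.0271), a call lost without any YSJZD replicate, control replicate 1 or control replicate 3. With YSJZD against cisplatin 4 of the 18 fell (22.2%), where 18.0% of all genes fell.

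Among 19 other cyclins, kinases and their switches, 10 rose and 2 fell with cisplatin (5 rose without both cisplatin replicate 1 and control replicate 1). In YSJZD against cisplatin 2 rose and 7 fell (4 without YSJZD replicate 3). Over all genes tested 28.6% rose and 26.0% fell with cisplatin, and 17.4% rose and 18.0% fell with YSJZD against it. Ccng1, cyclin G1, a p53 target, had 645, 755 and 1112 CPM in the YSJZD libraries, 1014, 1144 and 667 CPM in the cisplatin libraries and 199.6, 238 and 187 CPM in the control libraries. It rose 4.52-fold with cisplatin (2.18 ± 0.26, adjusted p = 6.88e-05) and was also 4.02-fold higher with YSJZD than in control (2.01 ± 0.25, adjusted p = 6.97e-04), while YSJZD and cisplatin libraries overlapped. Cdc25b, a phosphatase that activates Cdk1, and Cks1b, a subunit of its complexes, rose with cisplatin (1.81 ± 0.21, adjusted p = 6.07e-05 and 2.13 ± 0.33, adjusted p = 3.62e-04) and fell with YSJZD against it (-1.47 ± 0.20, adjusted p = 6.60e-04 and -1.71 ± 0.32, adjusted p = 0.00284). Of 11 genes of checkpoint kinases and their partners, 3 rose and 2 fell with cisplatin (1 rose without cisplatin replicate 1 or control replicate 1, and 1 fell without any of 6 single libraries). In YSJZD against cisplatin 2 rose and 3 fell. With cisplatin their shares, 27.3% rising and 18.2% falling, were below those over all genes. Clspn, the adaptor of CHK1, rose with cisplatin (1.89 ± 0.68, adjusted p = 0.0375) and fell with YSJZD against it (-2.81 ± 0.71, adjusted p = 0.0129), with the rise lost without cisplatin replicate 1 or 2 or control replicate 1 or 3, and the fall without YSJZD replicate 2 (-3.58 without YSJZD replicate 3). So did Rad9a (1.17 ± 0.16, adjusted p = 1.77e-04 and -0.75 ± 0.16, adjusted p = 0.00529). Hus1, which forms the checkpoint clamp with Rad9a, fell with cisplatin (-1.34 ± 0.15, adjusted p = 4.98e-05), was higher with YSJZD than with cisplatin (0.69 ± 0.15, adjusted p = 0.00614) and was lower with YSJZD than in control (-0.66 ± 0.15, adjusted p = 0.0121).

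**Figure D4:**
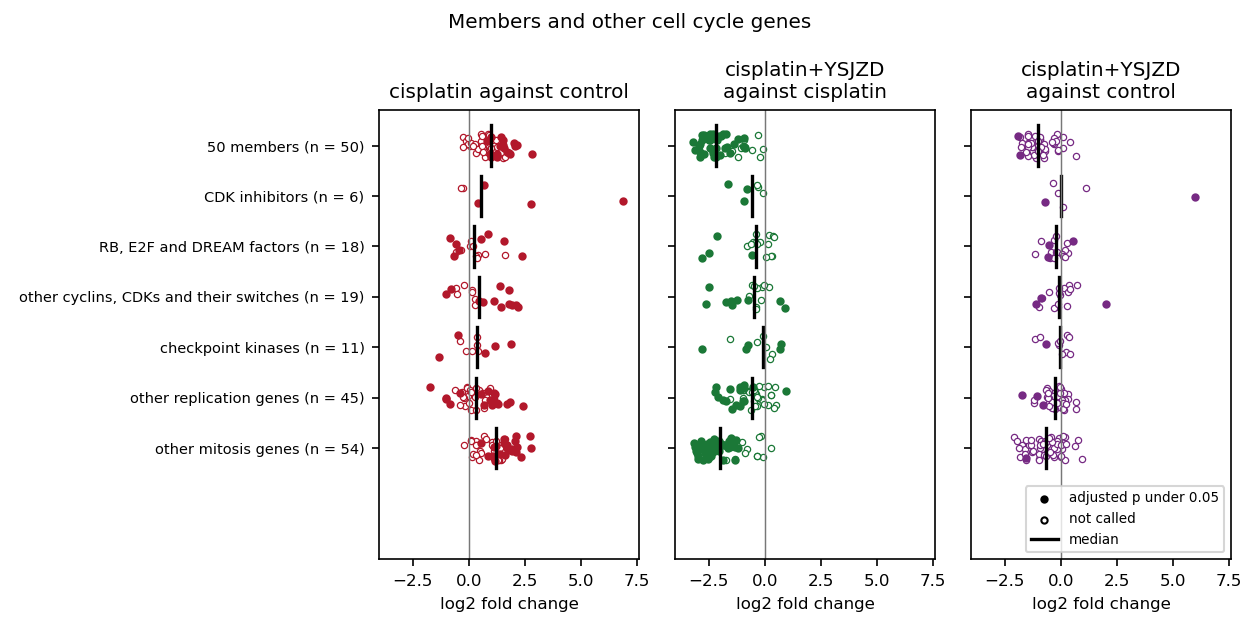
Log2 fold change of each tested gene (points, spread vertically only to separate them) in the 50 members and 6 other cell cycle lists (rows) for the 3 comparisons (panels). Filled points have an adjusted p under 0.05 in edgeR's quasi-likelihood test, and the vertical bar is the list's median. The members and the other mitosis genes lie furthest from 0 in the middle panel, with medians of -2.16 and -2.02, and the point far to the right among the CDK inhibitors is Cdkn1a.

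Genes of other cell types changed in the same libraries. In this bulk tissue fewer cells of a type and less RNA per cell cannot be told apart. The 10 macrophage and monocyte genes summed to 154, 106 and 154 CPM in the YSJZD libraries, 731, 1968 and 388 CPM in the cisplatin libraries and 160, 107 and 138 CPM in the control libraries. Of these 10 genes, 7 rose with cisplatin and 8 fell with YSJZD against cisplatin, where 28.6% and 18.0% of all genes tested did so. The 7 neutrophil genes summed to 8.75, 7.81 and 3.79 CPM with YSJZD, 37.7, 95.1 and 73.3 CPM with cisplatin alone and 1.45, 1.38 and 1.32 CPM in control. All 6 that were tested rose with cisplatin and fell with YSJZD against cisplatin, and Ly6g was not tested.

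The 6 fibroblast and pericyte genes summed to 214, 268 and 221 CPM with YSJZD, 645, 748 and 272 CPM with cisplatin alone and 136, 235 and 259 CPM in control, and all 6 rose with cisplatin while 4 fell with YSJZD against it. The 7 endothelial genes summed to 196, 238 and 191 CPM with YSJZD, 472, 545 and 244 CPM with cisplatin alone and 384, 350 and 438 CPM in control. Of these 7 genes, 1 rose and 2 fell with cisplatin against control, 3 fell with YSJZD against cisplatin and 4 fell with YSJZD against control. Their shares with cisplatin were 14.3% rising and 28.6% falling, where 28.6% and 26.0% of all genes tested did so. Over all genes 17.4% rose and 18.0% fell with YSJZD against cisplatin, and 9.37% fell with YSJZD against control. The 8 proximal tubule genes summed to 14909, 30481 and 16600 CPM with YSJZD, 5584, 3152 and 5847 CPM with cisplatin alone and 72688, 75747 and 57023 CPM in control. Of these 8 genes, 7 fell with cisplatin against control, 8 rose with YSJZD against cisplatin and 6 fell with YSJZD against control. The part of these cell types in the cell cycle result was not tested.

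The order of libraries differed in part between the cell cycle genes and the immune genes. A sum of 20 mitotic members gave 29.6, 30.2 and 58.3 CPM in the YSJZD libraries, 301, 196 and 149.8 CPM in the cisplatin libraries and 31.9, 123 and 107 CPM in the control libraries. Cisplatin replicate 1 had the highest mitotic sum, while cisplatin replicate 2 had the highest macrophage sum and the highest neutrophil sum. In cisplatin replicate 3 the macrophage sum was lowest of its group (388 CPM), as was the mitotic sum. The neutrophil sum was lowest of its group in cisplatin replicate 1 (37.7 CPM). The fibroblast and pericyte sum was highest in cisplatin replicate 2 (748 CPM). Like the mitotic sum, it was lowest of its group in cisplatin replicate 3 (272 CPM) and in control replicate 1 (136 CPM). Control replicate 1 had a mitotic sum near those of YSJZD replicates 1 and 2, and its macrophage sum was not below those of the other control libraries. Markers of dividing blood precursors were near 0. The 4 myeloid precursor genes (Mpo, Elane, Prtn3 and Ctsg) summed to 0.058 to 0.459 CPM with YSJZD, 0.325 to 1.20 CPM with cisplatin alone and 0 to 0.145 CPM in control, and Mpo, Elane and Ctsg were at 0 in all cisplatin libraries. The 7 T and NK cell genes summed to 1.57 to 5.99 CPM with YSJZD, 0.496 to 1.84 CPM with cisplatin alone and 2.05 to 12.9 CPM in control. Which cells carried the mitotic RNA was not tested.

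The promoters of the mitotic members shared elements that the choice of members did not use. RefSeq promoters were found for 40 of the 50 members, 42 promoters in all because a gene can have more than 1. A CHR was present in 20 of the 26 promoters of mitotic members (76.9%), in 2 of the 16 of G1 and S phase members (12.5%), in 12.3% of the 14176 promoters of tested genes and in 17.9% of all 32851 promoters of the table. A CCAAT box was present in 23 of 26 (88.5%), 11 of 16 (68.8%), 37.1% and 37.4% of the same sets. The E2F spellings were present in 1 of 26 (3.85%), 7 of 16 (43.8%), 3.63% and 2.27%. All 20 mitotic promoters with a CHR also held a CCAAT box, a pair found in 4.95% of the promoters of tested genes. Members with a CHR had a median log2 fold change of -2.33 in YSJZD against cisplatin and 1.05 in cisplatin against control (21 genes). Those without one had -1.75 and 0.83 (19 genes). Of the G1 and S phase members only Cdc45 and Mcm2 held a CHR, so this division largely repeats that into mitotic and other members. Cdc45 and Mcm2 had -1.20 and -0.86 in YSJZD against cisplatin, and -0.24 and 0.55 in cisplatin against control. Any part of the CHR in the changes was not tested.

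In the promoters printed earlier, the CHR of Ube2c starts 29 bases before the gene start and that of Kif23 starts at base 3 of the gene. Positions are those of the leftmost base of a match, with the first base of the gene counted as 1. Ccnb2 holds 2 CHRs and 3 CCAAT boxes, Cdk1 holds 2 CHRs, 3 CCAAT boxes and 1 E2F spelling, and Mcm6 holds 3 E2F spellings and 2 CCAAT boxes but no CHR. A match is a string of letters, not a measured binding site, and no binding was measured here.

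**Figure D5:**
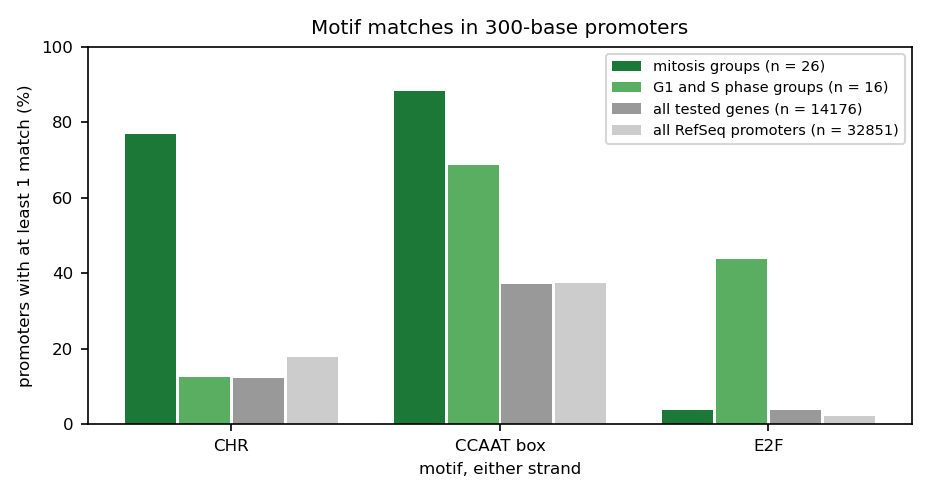
Share of promoters (%, axis from 0 to 100) with at least 1 match on either strand to the CHR, the CCAAT box or the E2F spellings, for the mitotic members, the G1 and S phase members, all tested genes and all RefSeq promoters. Mitotic members are highest for the CHR (76.9%) and the CCAAT box (88.5%), and G1 and S phase members for the E2F spellings (43.8%).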

How the data were processed

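RNA-seq (DNBSEQ platform, per the labels' protocols) of kidney cortex from 9 mouse samples was taken from 1 deposited table with a row for each transcript. The authors' expected counts and FPKM values were used. Per the submitters' processing notes, RSEM 1.3.1 and DESeq2 1.4.5 were used, the second for the authors' own calls, which were not used here, and the build named there, GRCh38, is human, so the mouse build, like the aligner, is not given in the sources used here. FPKM, deposited by the authors as estimates scaled by transcript length and library size, served only to set levels of genes side by side. Whether counting used strand is not stated in those sources.

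The 58075 transcripts were summed to 17963 genes by the Entrez number in the table, and sums were rounded to whole numbers (16.5 to 19.3% of them were not whole). Library totals were 15029286 to 16690482, so depth differed little between samples. edgeR 4.0.16 (R 4.3.3) removed 4009 genes with filterByExpr (minimum count 10), scaled by TMM (factors 0.855 to 1.11) and fitted all 9 libraries by group with the quasi-likelihood test. Adjusted p is Benjamini-Hochberg over 13954 genes, with a threshold of 0.05. The standard error is the log2 fold change divided by the square root of F. DESeq2 1.42.0 and limma 3.58.1 (voom), another scaling, other filters, the 6 libraries of a comparison alone, a replicate block and leaving out libraries were tried as alternatives. Colours in the heat map use a pseudocount of 0.5 CPM.

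The members, the pathway lists, the marker lists and the tests were chosen with earlier results of these data known. Within each list the text names the genes with the smallest p over the comparisons, up to 4 a member group and 3 a pathway list, except for 1 that is not reported here. Other genes named, including Pcna and Ccnd1, were added to account for the members of a group or chosen after their values were seen. Promoters and symbols came from RefSeq tables of GRCm38.p6.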

Additional observations from a re-analysis of the deposited data

How the results depend on the processing

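The count of members that rose with cisplatin (19) was 23 with library totals, 21 with DESeq2, 14 with the replicate block, 9 to 23 when each library was left out in turn and 7 without both control replicate 1 and cisplatin replicate 1, a setting added after seeing the data. The count that fell with YSJZD against cisplatin (39) was 30 with a filter of 5 CPM in 3 libraries, which left 38 members, and 27 to 45 leaving each library out. The count that fell with YSJZD against control (2) was 0 with library totals, the 5 CPM filter, limma-voom or the replicate block, 12 with DESeq2, 0 to 16 leaving each library out and 17 without both libraries, and 1 member rose with library totals. All genes called in YSJZD against control (2694) numbered 1625 without both libraries and 1607 to 3138 leaving each out. Of the called members, 9 of 19, 22 of 39 and 0 of 2 kept their call in every alternative but that without both libraries. Library totals moved the median of all genes to 0.27 in cisplatin against control and 0.20 in YSJZD against control, with 66.1% and 75.4% of calls higher, against 52.4% and 51.4% with TMM. Same-numbered libraries of different groups did not deviate together (correlations -0.17 to 0.11), so the numbers were not taken as pairs. Signs turned only for values that were not called. In cisplatin against control they turned for Ccnd1 (-0.46 voom, -0.17 block, -0.80 without both), Cdc6 (0.19 totals, 0.45 voom, 0.16 block), E2f1 (0.089 totals), Tyms (0.22 totals, 0.0090 at 5 CPM, 0.011 voom, 0.0026 block) and, without both libraries, Cdc20 (-0.26), Cenpf (-0.19), Gmnn (-0.02), Mcm2 (-0.10), Mcm5 (-0.25) and Pcna (-0.14). Without both libraries the values of Ccne2 (-1.20), E2f1 (-0.86), Cdc6 (-0.77), Cdc45 (-1.04) and Tyms (-0.21) kept their negative sign. In YSJZD against control they turned with totals for Gmnn (0.0009), Mcm4 (0.064, and 0.030 with voom), Mcm7 (0.066), Cdkn2d (0.049), Cdk7 (0.082) and Ccnh (0.062), for Incenp with DESeq2 factors (-0.0122) or DESeq2 (-0.0121), and without both for Cdt1 (-0.23), Stmn1 (-0.06), Mybl2 (-0.03) and Incenp (-0.18). Leaving out single libraries gave ranges across 0 in cisplatin against control for Ccnd1 (-0.78 to 0.56), Ccne2 (-0.79 to 0.20), Cdc45 (-0.69 to 0.0145), Cdc6 (-0.54 to 0.36), Cenpf (-0.02 to 0.84), E2f1 (-0.51 to 0.24), Gmnn (-0.21 to 0.59), Mcm6 (-0.0531 to 1.403) and Tyms (-0.14 to 0.21), and ranges above 0 for Mcm2, Mcm5, Pcna and Cdc20, with highest values of 0.79, 0.99, 0.54 and 0.91. In YSJZD against cisplatin they did so for Gmnn (-0.46 to 0.030) and Stmn1 (-0.16 to 0.0036). In YSJZD against control they did so for Cdt1 (-0.23 to 0.30), Gmnn (-0.46 to 0.31), Mcm4 (-0.47 to 0.14), Mcm7 (-0.30 to 0.0001), Stmn1 (-0.057 to 0.26), Tyms (-0.35 to 0.0015), Mybl2 (-0.035 to 0.53), Rnaseh2a (-0.11 to 0.18) and Incenp (-0.18 to 0.15). The cause of these differences was not tested. Counts under 20, in up to 16 members of a library, limit the precision of the lowest mitotic genes.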

Other observations

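Cdk7 and Ccnh encode subunits of the kinase that activates cyclin-dependent kinases. Each was lower with cisplatin than in control and higher with YSJZD than with cisplatin. Over all genes tested, 26.0% fell in the former comparison and 17.4% rose in the latter. These genes were chosen after their values were seen, and no other subunit of the kinase was examined. Cdk7, its catalytic subunit, had 28.4, 30.6 and 31.1 CPM in the YSJZD libraries, 20.7, 19.2 and 16.7 CPM in the cisplatin libraries and 31.1, 33.0 and 32.7 CPM in the control libraries. Cisplatin libraries were below all others, and YSJZD and control libraries lay close together. Cdk7 fell with cisplatin against control (-0.77 ± 0.13, adjusted p = 5.68e-04) and was higher with YSJZD than with cisplatin (0.67 ± 0.13, adjusted p = 0.00322). Ccnh, its cyclin, had 19.3, 23.8 and 24.6 CPM in the YSJZD libraries, 13.8, 12.2 and 10.6 CPM in the cisplatin libraries and 23.9, 26.7 and 23.4 CPM in the control libraries, and likewise fell with cisplatin (-1.01 ± 0.16, adjusted p = 4.29e-04) and was higher with YSJZD than with cisplatin (0.89 ± 0.16, adjusted p = 0.00239).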
